A study of Mus musculus with 2 samples.

Results

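This account covers 8 miRNA genes that are known from white blood cells and tissue macrophages: Mir142, Mir146, Mir146b, Mir150, Mir155, Mir223, Mir342 and Mir511. They were named by symbol from known roles in these cells, by a rule that uses no counts but was written with earlier results of these data known, and all 8 were found among the 2202 miRNA genes of the tables. Small RNA was sequenced from adrenal glands of female B6CASTF1/J mice, the F1 hybrid of C57BL/6J and CAST/EiJ parents, at 14 days of age. There was 1 group of 2 libraries, named biological replicates 1 and 2, with no treatment, mutation or second age in either. By its label replicate 1 held glands of 3 females, replicate 2 those of 1 numbered female, and the donor named is the same for both. The difference between the libraries may therefore include pooling. It is given below only as the spread between these 2 libraries and not as that of the tissue, since genes of other tissues differed widely too. Messenger RNAs that define adrenal cortex or medulla are not in these tables, and no miRNA defines the gland, so the tissue label could not be checked against such markers.

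A microRNA is cut from a hairpin precursor, loaded into an Argonaute protein and pairs with messenger RNAs through its seed, bases 2 to 8 from the 5′ end, which lowers the output of those messages. Mir142 is active across blood cell lineages. Mir150 is high in mature B and T cells, Mir155 is induced on activation of lymphocytes and macrophages, and Mir342 lies in Evl, an actin regulator gene expressed in lymphocytes and other cells. Mir223 is the classical miRNA gene of granulocytes and monocytes. Mir146, the gene of miR-146a, is induced by NF-κB and dampens inflammatory signalling, and miR-146b-5p of Mir146b has the seed of miR-146a-5p. Mir511 lies within Mrc1, the mannose receptor gene CD206 of resident macrophages. In a whole gland, white blood cells held in vessels and in tissue are read together. Other cells of the gland may also express these genes, as said of Evl, and the cells behind the counts were not identified. In bulk RNA, fewer cells of a type cannot be told apart from less RNA per cell.

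Mature sequences of all 8 genes were matched by symbol in RefSeq (build GRCm38.p6), and those below are shown because the seed decides which messages a miRNA can pair with. Only miR-150-3p was found there for Mir150, and only miR-511-3p for Mir511. Any other mature miRNA of these genes, with its own seed, is therefore missing here. Each sequence runs 5′ to 3′, with the seed in capitals.
miR-142a-5p: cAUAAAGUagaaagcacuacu
miR-142a-3p: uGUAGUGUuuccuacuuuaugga
miR-146a-5p: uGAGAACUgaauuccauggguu
miR-146b-5p: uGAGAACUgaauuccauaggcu
miR-150-3p: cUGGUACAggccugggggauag
miR-155-5p: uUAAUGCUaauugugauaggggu
miR-342-3p: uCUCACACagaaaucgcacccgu
miR-223-3p: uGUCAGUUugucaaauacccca
miR-511-3p: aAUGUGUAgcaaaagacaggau

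The 14 mature miRNAs found in RefSeq for the 8 genes carried 13 different seeds. Any further mature miRNA of Mir150 or Mir511 is not among them. The 1 shared seed was GAGAACU, of miR-146a-5p and miR-146b-5p. These 22-base sequences had the same first 17 bases and differed at 2 positions, G18A and U21C, counted from the 5′ end and written from miR-146a-5p to miR-146b-5p. No other mature miRNA of the table, with 1738 in all, held one of these 13 seeds. None of the 14 sequences occurred whole in a hairpin of another gene among 1005 hairpins, and 17 bases was the longest run shared between mature miRNAs of different genes of the group. Reads ending within those 17 bases would fit both miR-146 genes, and reads with several places in the genome were counted on no gene. Read lengths were not analysed here, so the number of reads lost in this way is not known.

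The hairpin of Mir142 is shown because its whole length lies inside another annotated miRNA gene on the other strand. The capitals mark the 5p and 3p miRNAs.
Mir142: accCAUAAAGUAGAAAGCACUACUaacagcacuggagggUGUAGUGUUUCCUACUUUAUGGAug

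All 64 bases of it lie within the 115-base hairpin of Mir142b, which RefSeq and GENCODE place on the minus strand. Reads of the 2 genes could be told apart only by strand. On the own strand, 5596 counts in replicate 1 and 2025 in replicate 2 belonged to Mir142, and Mir142b had 0 in both, which allows up to 0.681 and 0.692 CPM (3 counts). In the column that ignores strand both genes stood at 0, since those reads were set aside as ambiguous. The other 7 genes had at most 1 count on the opposite strand in either library.

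**Figure D1:**
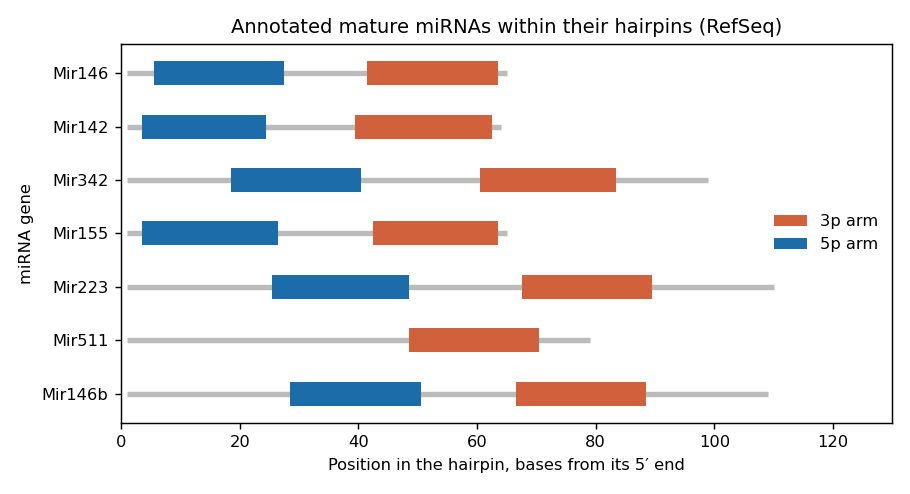
Positions of the annotated 5p and 3p miRNAs (bars) along the hairpins (grey lines) of 7 of the genes, in bases from the hairpin's 5′ end. Hairpins ran from 64 bases for Mir142 to 110 for Mir223, while the mature miRNAs were 21 to 23 bases long.

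By position, the genes lie on 7 chromosomes with few miRNA neighbours. Coordinates are those of GENCODE M21 on mm10. Mir142 (ENSMUSG00000105196.1) lies at chr11:87756864-87756927 on the plus strand, between the exons of the noncoding host gene Mir142hg. Mir146 (ENSMUSG00000065601.1) lies on the minus strand of the same chromosome, at chr11:43374397-43374461, outside any other annotated gene. Mir146b (ENSMUSG00000070127.2) lies in an intron of Mfsd13a at chr19:46342762-46342870, on the plus strand like the remaining genes. Mir150 (ENSMUSG00000065495.1) is intergenic, at chr7:45121757-45121821, and has the nearest separate miRNA neighbour of the group, Mir5121, at a distance of 5097 bases. Mir155 (ENSMUSG00000065397.1) overlaps an exon of Mir155hg, the gene known as Bic, at chr16:84714140-84714204. Mir342 (ENSMUSG00000065436.1) lies in an intron of Evl at chr12:108658620-108658718. Mir223 (ENSMUSG00000076066.1) overlaps an exon of the noncoding gene F630028O10Rik at chrX:96242817-96242926. Mir511 (ENSMUSG00000077897.1) lies in an intron of Mrc1 at chr2:14261003-14261081. The messages of these host genes were not measured in these small RNA libraries.

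Replicate 1 held 10720796 reads with 3797107 counted on miRNA genes, and replicate 2 held 11190481 with 5034257 counted. Replicate 2 stood apart in genes of other tissues. Mir122, of hepatocytes, had 10996 and 1080041 counts, and Mir206, of skeletal muscle, had 106 and 7815. Levels are therefore given as CPM, counts scaled to a shared library size of 1000000, with sizes set by TMM (trimmed mean of M-values) so that the middle of the genes is level between the libraries. Ratios are relative to that scaling. Counts are per hairpin, so the 5p and 3p miRNAs of a gene are summed. Reads with several places in the genome, 3002371 and 2795730, were counted on no gene. Counting intervals cover counting error only, as they are computed from read counts alone. Reads carried no molecular identifiers, so repeated reads of the same molecule could not be told apart.

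The 8 genes took a small part of the gland's miRNA counts, with mean levels from 0.796 CPM for Mir146b to 1197 CPM for Mir146. Their sum was 16737 counts in replicate 1, or 0.441% of all miRNA counts (Wilson 95% interval 0.434 to 0.447), and 14734 in replicate 2, or 0.293% (0.288 to 0.297). The mean share was 0.367% ± 0.105 (SD, n = 2). With Mir122 left out of the totals the shares were 0.442% and 0.373%. By mean level, 5 of the 8 stood above the median of the 358 detected miRNA genes, which was 118 CPM, and Mir223, Mir511 and Mir146b stood below it. Detection took 10 counts or more in both libraries, which 7 of the 8 reached. The mature miRNAs listed for the group are all 21 to 23 bases long, so levels were not divided by length. Capture preferences of the library protocol were not measured.

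Of the genes shared across white blood cells, Mir146 had the highest mean level and Mir142 the next. Mir146 had 4788 counts in replicate 1 and 5669 in replicate 2, or 1086 and 1307 CPM (mean 1197 ± 156, SD, n = 2). Its ranks among all genes were 75 and 64. Mir142 had 1270 and 467 CPM (mean 868 ± 568, SD, n = 2), ranks 65 and 106. Mir142 thus led the group in replicate 1 and was behind Mir146 and Mir342 in replicate 2. Mir146b had 6 counts and 1 count, or 1.36 and 0.231 CPM (mean 0.796 ± 0.800, SD, n = 2). It was the lowest of the group in both libraries. The exact Poisson 95% intervals of these counts, 2.20 to 13.1 and 0.0253 to 5.57, overlapped. Within a library, reads assigned to Mir146 outnumbered those of Mir146b by 798 to 1 in replicate 1 (Clopper-Pearson 95% interval 366 to 2176) and by 5669 to 1 in replicate 2 (1017 to 223953). Of the pair with the shared seed GAGAACU, nearly all counts thus fell on the Mir146 locus.

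Among the lymphoid genes, Mir342 was the highest and Mir155 the lowest in both libraries. Mir342 had 3685 and 3650 counts, or 836 and 841 CPM (mean 839 ± 3.73, SD, n = 2). Mir150 had 1214 and 1825 counts, or 275 and 421 CPM (mean 348 ± 103, SD, n = 2). Mir155 had 954 and 958 counts, or 216 and 221 CPM (mean 219 ± 3.10, SD, n = 2). The near equality of Mir342 and of Mir155 between the libraries holds with TMM only. Scaled to library totals instead, Mir342 stood at 970 and 725 CPM, Mir150 at 320 and 363, and Mir155 at 251 and 190. The ranges of the 3 genes over the libraries did not overlap. The ratio of Mir342 to Mir155 within a library was 3.86 (3.60 to 4.15) in replicate 1 and 3.81 (3.55 to 4.10) in replicate 2, with overlapping intervals. Mir150 stood differently against each of them in the 2 libraries. The ratio of Mir342 to Mir150 was 3.04 (2.84 to 3.24) and 2.00 (1.89 to 2.12), and that of Mir150 to Mir155 was 1.27 (1.17 to 1.39) and 1.91 (1.76 to 2.06), intervals that did not overlap.

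The myeloid gene and the macrophage gene were less abundant. Mir223 had 436 and 577 counts, or 98.9 and 133 CPM (mean 116 ± 24.1, SD, n = 2), ranks 185 and 172. Mir511 had 58 and 29 counts, or 13.2 and 6.69 CPM (mean 9.92 ± 4.58, SD, n = 2), ranks 284 and 312. Every lymphoid gene stood above Mir223, and Mir223 above Mir511, in each library. The summed lymphoid genes exceeded Mir223 by 13.4 to 1 in replicate 1 (12.2 to 14.8) and 11.1 to 1 in replicate 2 (10.2 to 12.2). This sum sets 3 genes against 1, and Mir342 held 3685 of its 5853 counts in replicate 1 and 3650 of 6433 in replicate 2. Mir150 alone exceeded Mir223 by 2.78 and 3.16 to 1, and Mir155 alone by 2.19 and 1.66 to 1. Neither Mir342 nor Mir155 is confined to lymphocytes, as said above. Mir223 exceeded Mir511 by 7.52 to 1 (5.71 to 10.1) and 19.9 to 1 (13.7 to 30.0). These ratios rest on counts within 1 library and do not depend on scaling between libraries. Different miRNA genes are made in different amounts per cell, so the ratios do not count cells.

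**Figure D2:**
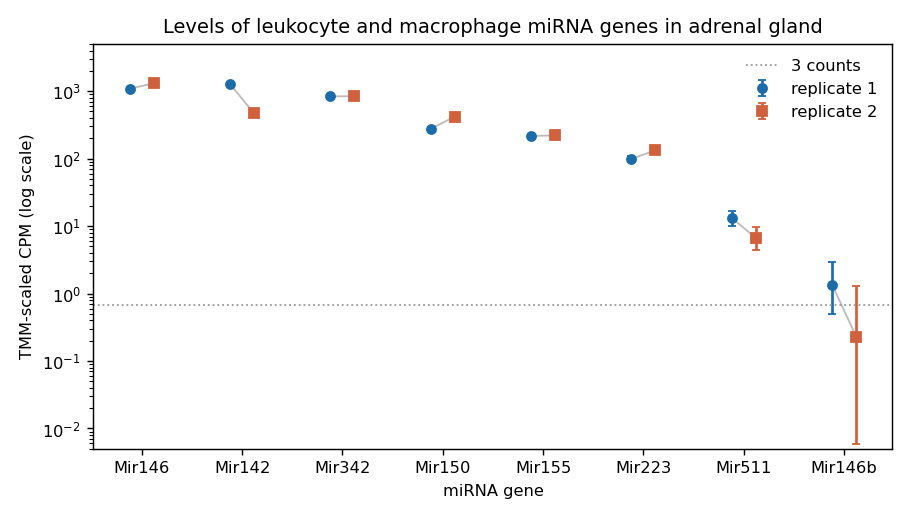
Level of each gene in both libraries, in TMM-scaled CPM on a log axis, with exact Poisson 95% intervals of the counts as bars; the dotted line marks 3 counts. With Mir142 set aside, which had 1270 and 467 CPM, the genes kept 1 order in both libraries.

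In order of mean level the genes were Mir146, Mir142, Mir342, Mir150, Mir155, Mir223, Mir511 and Mir146b. The ranges of Mir146 and Mir142 over the libraries overlapped, as did those of Mir142 and Mir342. Each later pair of neighbours had ranges that did not overlap. With Mir142 set aside, the other genes had the same order in each library. Division by hairpin length gave the order of all 8 unchanged.

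As shares of the group's own counts, the lymphoid genes made up 35.0% in replicate 1 (34.3 to 35.7, Wilson 95% interval) and 43.7% in replicate 2 (42.9 to 44.5). The myeloid gene Mir223 made up 2.61% (2.37 to 2.86) and 3.92% (3.61 to 4.24), and the Mrc1-hosted Mir511 made up 0.347% (0.268 to 0.448) and 0.197% (0.137 to 0.283). The share of Mir142 differed most between the libraries, with 33.4% (32.7 to 34.2) and 13.7% (13.2 to 14.3). Leaving Mir142 out, a choice made after its values were seen, the lymphoid share was 52.5% and 50.6%, that of Mir223 3.91% and 4.54%, that of Mir146 43.0% and 44.6%, and that of Mir511 0.521% and 0.228%. The lymphoid share depended on 1 gene, since it was 15.9% on the mean of the libraries with Mir342 moved to the shared genes, against 39.3% ± 6.15 (SD, n = 2) with it.

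**Figure D3:**
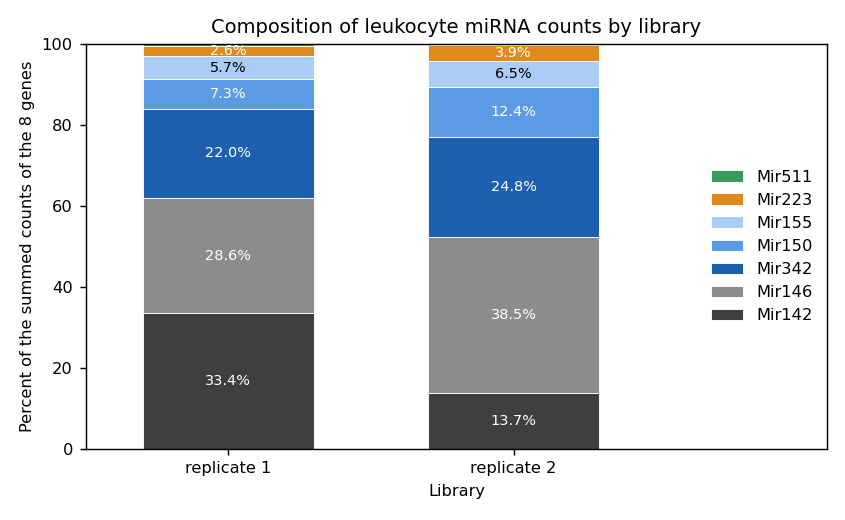
Percent of the group's summed counts taken by each gene in the 2 libraries, as stacked bars; Mir146b, under 0.04%, is not drawn. Mir142 took 33.4% in replicate 1 and 13.7% in replicate 2, and Mir146 took 28.6% and 38.5%.

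Between the libraries, Mir142 was the 1 gene of the 7 tested that differed by the rule used, lower in replicate 2. The rule takes an exact two-sided binomial test of a gene's 2 counts, adjusted by Benjamini-Hochberg over all 358 detected genes, with limits of 0.05 on the adjusted p and of 1 on the size of the log2 ratio. It called 17.9% of all detected genes, and 8.66% as lower in replicate 2, so 1 of 7 lies near the background. The test compares the reads of these libraries and neither conditions nor animals. Mir142 had a log2 ratio, replicate 2 over replicate 1, of -1.44 (Clopper-Pearson 95% counting interval -1.52 to -1.37), a level 2.72-fold lower in replicate 2. Its adjusted p in the exact binomial test was below the smallest number the calculation can hold. In edgeR's exact test, with a common dispersion estimated from the same 2 libraries, Mir142 had an unadjusted p of 0.127 and an adjusted p of 1, and no gene of the group passed, with 0 of 7 at an unadjusted p under 0.05. That test passed 6 of the 358 genes, and 15 had an unadjusted p under 0.05. The dispersion of that test took in the very difference it tested, so a gene that did not pass is not shown to be level. With Mir122 left out of the scaling, the ratio of Mir142 was again -1.44. The trimmed mean already sets aside genes of extreme ratio such as Mir122, so this could hardly have come out otherwise.

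Mir511 lay just inside the ratio limit. Its log2 ratio was -0.96 (-1.67 to -0.31), with an adjusted p of 0.00436 in the exact binomial test, and with library totals in place of TMM it was -1.39 and passed the rule. Within a library, Mir142 exceeded Mir511 by 96.5 to 1 (74.5 to 127) in replicate 1 and 69.8 to 1 (48.5 to 105) in replicate 2, so the ratio of these 2 genes had overlapping intervals. The ratio of Mir142 to Mir223 was 12.8 (11.6 to 14.2) and 3.51 (3.20 to 3.86), and that of Mir142 to Mir150 was 4.61 (4.33 to 4.91) and 1.11 (1.04 to 1.18). Mir142 was thus lower in replicate 2 relative to the myeloid and the lymphoid genes alike, without any scaling between libraries.

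The other 5 tested genes lay within the ratio limit. Mir150, the lymphocyte gene, had a log2 ratio of 0.61 (0.51 to 0.72), the highest of the group, with an adjusted p of 2.78e-30 in the exact binomial test, and 0.18 under library totals. Mir223 had a log2 ratio of 0.43 (0.25 to 0.61), and -0.0030 under library totals. Mir146 had a log2 ratio of 0.27 (0.21 to 0.32), and -0.16 under library totals. Mir155 and Mir342 had intervals that included equal levels. Mir155 stood at 0.03 (-0.10 to 0.16) and Mir342 at 0.009 (-0.06 to 0.08), and both turned negative under library totals, at -0.40 and -0.42. For Mir146b, which was too low to test, the counting interval of the log2 ratio ran from -8.09 to 0.48. Without the ratio limit, 5 of the 7 genes and 67.9% of all detected genes passed the adjusted p. The median log2 ratio of the 7 was 0.03, against -0.06 over all 358, and their median absolute log2 ratio was 0.43, against 0.46. The biological coefficient of variation between the libraries was 0.444 by edgeR over all detected genes.

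**Figure D4:**
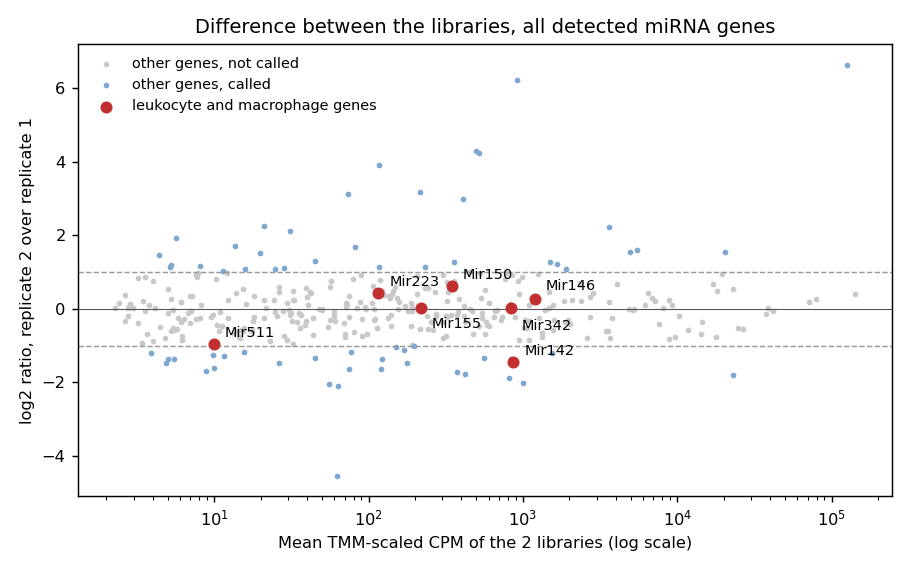
Log2 ratio of replicate 2 over replicate 1 against mean level for the 358 detected miRNA genes, with dashed lines at a log2 ratio of 1 in each direction. Of the 7 labelled genes, Mir142 at -1.44 lies beyond the lines and Mir511 at -0.96 just inside.

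Of the red blood cell genes, Mir451a was lower in replicate 2 as well. Mir451a, which matures without Dicer, had 7059 counts in replicate 1 and 1703 in replicate 2, a log2 ratio of -2.03 (-2.11 to -1.95). Its cluster neighbour Mir144 had a log2 ratio of -0.37 (-0.49 to -0.24) and Mir486 one of -0.12 (-0.45 to 0.21). In edgeR's exact test Mir451a had an unadjusted p of 0.0352 and one of 0.879 after adjustment. Of these 3 genes, 1 was called by the binomial rule, against 17.9% of all detected genes (8.66% as lower). Their summed level was 1927 CPM in replicate 1 and 650 in replicate 2, with no gene at 0. This sum mostly follows Mir451a, which held 7059 of its 8490 counts in replicate 1 and 1703 of 2819 in replicate 2. Mir126a, of endothelium, had a log2 ratio of 0.41 (-0.02 under library totals). Of the hepatocyte and muscle genes, Mir122 stood at 6.64, Mir206 at 6.22 and Mir499 at 1.93, while Mir1a-1 and Mir133a-1 had 0 counts in both libraries. Reads of such numbered gene copies can fit more than 1 place and then go uncounted, so a 0 here is no sign of a low level. The smooth muscle genes Mir143 and Mir145a stood at -0.13 and 1.27, and the endocrine genes Mir375 and Mir7-1 at -0.51 and -0.56. The part of blood content, or of liver and muscle RNA, in the difference of Mir142 was not tested.

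Other miRNA genes with roles in blood cells but wide expression, 26 in all, are shown beside the 8 genes, and 24 of them were detected. By the same rule 1 was higher and 4 lower in replicate 2, or 20.8% against 17.9% over all detected genes, and the median log2 ratio was -0.27 against -0.06. Under library totals 0 were higher and 9 lower, or 37.5%, with a median of -0.70, where the median over all detected genes was -0.49. With TMM the lower ones were Mir21a, the miRNA gene of stress and activation, at -1.79, the neighbours Mir222 and Mir221, which restrain Kit in blood precursors, at -1.65 and -1.34, and Mir181a-1, which tunes T cell receptor signalling, at -1.48. The higher one, Mir181a-2, at 1.03, is a second copy of Mir181a-1 and rested on 33 and 67 counts, and was not called under library totals. Reads shared by such copies were set aside, so the values of both are uncertain. None of the 24 passed edgeR's exact test after adjustment, and 0 had an unadjusted p under 0.05. The most abundant genes of this list were Mir21a, with 35713 and 10330 CPM, Mir23a, with 13068 and 20984, Mir17, with 4288 and 2839, and Mir20a, with 1879 and 1256. All 4 were above every one of the 8 leukocyte and macrophage genes on the mean of the libraries.

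**Figure D5:**
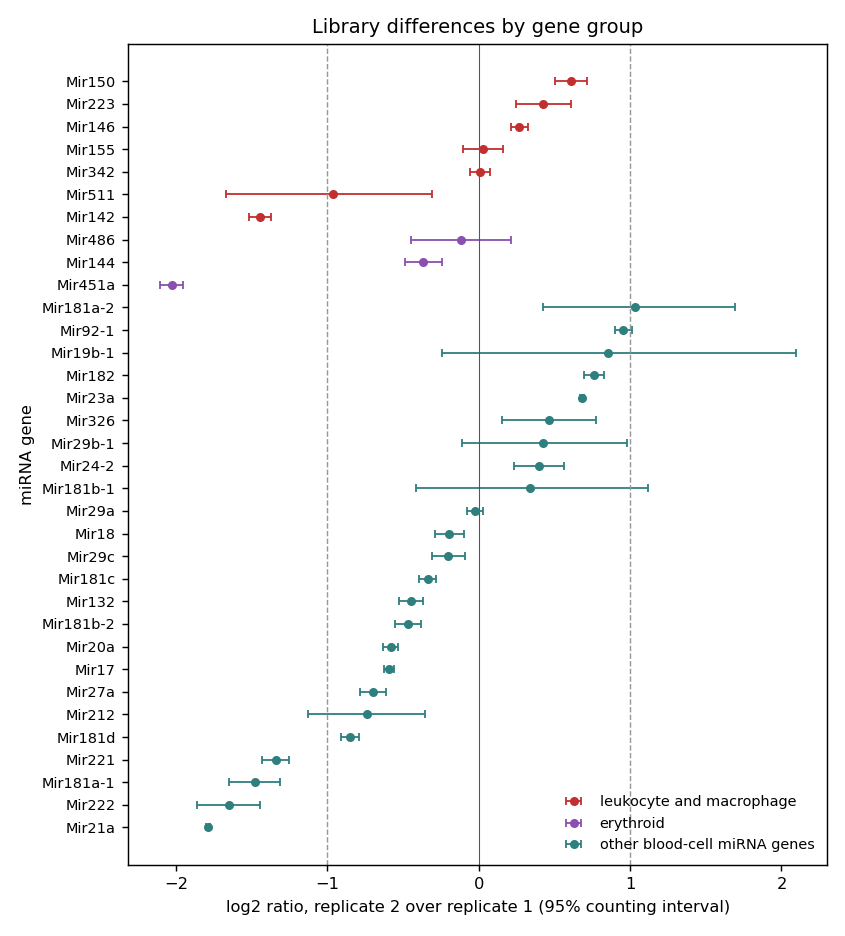
Log2 ratio of replicate 2 over replicate 1 with 95% counting intervals for the 7 tested leukocyte and macrophage genes, 3 erythroid genes and 24 detected genes with other roles in blood cells. Mir142, Mir451a, Mir21a, Mir221, Mir222 and Mir181a-1 lie beyond -1, and Mir150 leads the 7 at 0.61.

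With 2 libraries the pattern of a gene is a single ratio, and the genes nearest to a ratio were looked up among the 261 detected genes whose mean reached 100 counts. Nearest to Mir142, at -1.44, were Mir34b at -1.47, Mir181a-1 at -1.48 and Mir31 at -1.38. Nearest to Mir150 were Mir574 at 0.61, Mir3072 at 0.60 and the gene annotated as Snord43 at 0.59. Nearest to Mir223 were Mir129-2 at 0.43, Mir744 at 0.42 and Mir15a at 0.42. Any gene of like ratio would be listed here, so these names describe the 2 libraries only.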

How the data were processed

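The deposited tables give 1 raw count per miRNA gene and column, made by the authors on build mm10 with GENCODE M21, per the labels and the text files that accompany them. Not given in the sources used here are the aligner, the counter and the trimming. The 3 count columns carry no header. The strand column with more miRNA counts in both libraries was taken as the own strand. The 4 summary lines stayed out of totals.

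TMM factors were computed with edgeR over genes with at least 10 counts in each library. Log2 ratios used a prior count of 0.5. The libraries were not 1 library deposited in duplicate, since their counts differed beyond sampling noise (chi-square 1230150, 422 degrees of freedom). The labels call the libraries biological replicates but name 1 donor for both, so the spread between them may be partly technical, and p-values compare only their reads. With 1 library on each side, edgeR's quasi-likelihood test did not apply. The binomial procedure was tested on simulated counts that held counting error only. The wider spread between these 2 libraries was not simulated. All 8 genes were named, with all genes of the marker lists in the text and up to 4 of the further blood-cell list besides those called. The genes and lists were chosen with earlier results of these data known. Alternatives were other scalings, count minimums of 1 and 100, a prior count of 5, the unstranded column, edgeR's exact test, each replicate left out and other class memberships. Tools were edgeR 4.0.16 and DESeq2 1.42.0 in R 4.3.3, and scipy 1.17.1 with numpy 2.4.6 in Python 3.11.15.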

Additional observations from a re-analysis of the deposited data

How the results depend on the processing

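No paired analysis was possible because the series has 1 group. The call of Mir142 and its direction held under DESeq2 size factors and library totals. They also held under both other count minimums and a prior count of 5, which could hardly change a gene with 5596 and 2025 counts. Mir142 had no value in the unstranded column, where 0 of the 8 genes were called, and it did not pass edgeR's exact test (0 called). Library totals added Mir511, for 2 called, at a log2 ratio of -1.39, and turned Mir146 (-0.16), Mir155 (-0.40), Mir342 (-0.42) and Mir223 (-0.0030) negative. Of 39 alternative log2 ratios of single genes, 34 kept both direction and side of the rule. Over all genes the 64 calls, 33 higher and 31 lower, became 97 under library totals (18 higher, 79 lower), 37 with a minimum of 100 counts, where 246 genes were tested in place of 358, and 6 in edgeR's exact test. The lymphoid share became 51.6% in the unstranded column and 51.6% without Mir142, and 15.9% with Mir342 among the shared genes. The share of Mir223 became 4.23% in the unstranded column and 4.23% without Mir142. Since Mir142 had 0 counts in the unstranded column, these settings were in effect the same calculation and not separate checks. In the unstranded column 1 of 8 genes kept its place in the order, and with either replicate left out 6 did. In each of these only Mir142, at 0 counts in the unstranded column, moved against the others, which kept their order. The leave-one-out shares were 0.293% to 0.441% for the 8 genes together, 35.0% to 43.7% for the lymphoid genes, 2.61% to 3.92% for Mir223 and 0.197% to 0.347% for Mir511. Ratios need both libraries, so none exists with 1 left out. Depth limits Mir146b, at 6 counts and 1 count, and Mir511, at 58 and 29.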
